A study of Mus musculus with 4 samples.

Results

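The genes described are 10 secreted factors and receptors of the neutrophil chemokine and interleukin-1 (IL-1) axis, followed by cell type in malignant ascites of treated mice. They are the chemokines Cxcl1, Cxcl2 and Cxcl5, the chemokine receptor Cxcr2, the growth factors Csf3 and Csf2, the IL-1 ligands Il1a and Il1b, the receptor antagonist Il1rn and the decoy receptor Il1r2. The genes were taken as a named list, all 10 were listed in each of the 4 libraries, and the joined matrices held 29835 genes in all. Their unique molecular identifiers (UMIs) were summed over cells gated by the UMIs of other genes and expressed as CPM, the UMIs of the gene scaled to 1000000 UMIs of those cells.

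C57BL/6 mice had been injected intraperitoneally with ID8-Trp53-/- cells, ovarian surface epithelial tumour cells that lack Trp53, which had grown for 7 days before treatment began. The control group received DMSO and an isotype IgG antibody, the BTYNB group BTYNB and the isotype IgG, the anti-PD-1 group DMSO and a blocking antibody against PD-1, and the combination group BTYNB and the PD-1 antibody. BTYNB is a small molecule directed at the RNA-binding protein Igf2bp1, and PD-1 is an inhibitory receptor of T cells. Every mouse thus carried the same Trp53-deficient tumour line and an antibody, and the mice were treated until about 3 mL of ascites had formed. Ascites cells of the animals of each treatment were pooled into 1 library, so the groups had no replicates and the values carry neither a test nor a p-value. All intervals are 95% intervals of counting error and do not cover the spread between animals.

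Cxcl1, Cxcl2 and Cxcl5 belong to the chemokines that bind Cxcr2 and draw neutrophils into tissue, while Csf3 (G-CSF) and Csf2 (GM-CSF) drive the production and survival of neutrophils and other myeloid cells. IL-1 alpha and IL-1 beta act on the receptor Il1r1 with Il1rap and induce such chemokines and growth factors through NF-kB. Il1rn occupies Il1r1 without signalling, and Il1r2 binds the ligands without passing on a signal. In the fluid of ovarian tumours, these factors can come from tumour cells, macrophages, dendritic cells or neutrophils.

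The promoters of Cxcl1 and Cxcl2, neighbouring genes on chromosome 5, and 1 promoter of Il1rn are shown, because these 3 genes hold the 10 letters GGG, any 2 bases and TTTCC, a common form of the site bound by NF-kB. The sequences are those of RefSeq on GRCm38.p6, from 250 bases before to 50 bases after the start of transcription, whereas the submitters' processing notes name GRCm39 for the libraries. Capitals mark each match on either strand. The Cxcl1 window is chr5:90890995-90891294 (+), the Cxcl2 window is chr5:90903649-90903948 (+) and the Il1rn window is chr2:24345121-24345420 (+).
Cxcl1: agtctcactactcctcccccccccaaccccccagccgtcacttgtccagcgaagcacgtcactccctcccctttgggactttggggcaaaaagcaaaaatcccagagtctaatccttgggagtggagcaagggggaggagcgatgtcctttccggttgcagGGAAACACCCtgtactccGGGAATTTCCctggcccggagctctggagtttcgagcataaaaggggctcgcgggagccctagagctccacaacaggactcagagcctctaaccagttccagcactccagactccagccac
Cxcl2: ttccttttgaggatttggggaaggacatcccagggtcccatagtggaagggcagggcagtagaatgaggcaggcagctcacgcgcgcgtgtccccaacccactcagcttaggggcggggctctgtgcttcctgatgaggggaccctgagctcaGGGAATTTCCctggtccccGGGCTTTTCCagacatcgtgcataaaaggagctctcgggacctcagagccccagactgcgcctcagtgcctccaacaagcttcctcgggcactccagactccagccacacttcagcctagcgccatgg
Il1rn: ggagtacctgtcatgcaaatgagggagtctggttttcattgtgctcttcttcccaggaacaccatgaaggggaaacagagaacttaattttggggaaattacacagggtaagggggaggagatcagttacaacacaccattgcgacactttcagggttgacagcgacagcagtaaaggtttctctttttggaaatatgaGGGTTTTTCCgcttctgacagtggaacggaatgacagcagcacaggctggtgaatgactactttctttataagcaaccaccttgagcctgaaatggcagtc

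The Cxcl1 promoter held GGGAATTTCC beginning 71 bases before the start and a reverse-strand match, GGAAACACCC, at 89 bases. The Cxcl2 promoter held GGGAATTTCC at 97 and GGGCTTTTCC at 78 bases before the start, and that of Il1rn held GGGTTTTTCC at 51 bases. The same Il1rn letters lie 30 bases after an earlier start whose window overlaps this one. Of 32851 promoters of 27025 genes, 535 (1.63%) held a match. Of the 10 promoters of the 8 genes with an entry, 4 did, and those of Il1r2, Cxcr2, Il1a, Il1b and Csf2 did not. A match is a description of the letters in the window and not evidence of binding.

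The libraries differed in size and depth. After cells with few genes or many mitochondrial UMIs had been removed, 18283 cells of BTYNB were kept, 12019 of anti-PD-1, 7834 of control and 7042 of combination, with between 78603888 and 114600397 UMIs deposited per library. The shallowest deposited cell had 869 UMIs in BTYNB, 3533 in anti-PD-1, 4438 in control and 5115 in combination, and 69.8% of BTYNB cells lay below the combination minimum. Pairs of libraries shared at most 4 cell barcodes. The tumour gate (5 or more UMIs of Krt7, Krt8, Krt18, Krt19 and Wt1 and no Ptprc) held 7114, 3606, 10923 and 4369 cells in control, BTYNB, anti-PD-1 and combination, the order used throughout. The myeloid gate (3 or more UMIs of Lyz2 and Csf1r, few of S100a8, S100a9 and keratins) held 289, 3034, 383 and 1254 cells. The neutrophil gate (5 or more UMIs of S100a8 and S100a9 and at least 1 of Csf3r and Retnlg) held 675 cells in BTYNB but only 16, 6 and 9 in control, anti-PD-1 and combination, so neutrophil levels are given for BTYNB alone. The median BTYNB neutrophil had 1408 UMIs, below the shallowest deposited cell of each other library, and 44 of the 675 had 5115 or more. Numbers of neutrophils are therefore not comparable between libraries, and the part of depth in their difference was not tested. The T cell gate held 22, 2481, 30 and 158 cells.

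Markers that no gate used were checked. Of 6 tumour markers, 4, 4, 5 and 5 were at 10 CPM or more in the tumour gate of control, BTYNB, anti-PD-1 and combination. Upk3b, a mesothelial and ovarian surface marker, was between 455 and 641 CPM in the tumour gate and between 13.1 and 69.2 CPM in the myeloid gate, while Epcam was below 1 CPM in the tumour gate of every library. Of 9 myeloid markers, all 9 were at 10 CPM or more in the myeloid gate of each library, with summed levels of 11858 to 15240 CPM. Neutrophils of the BTYNB library held 10 of 11 neutrophil markers at 10 CPM or more under their own symbols, and the remaining one, Il1f9, an older symbol of Il36g, was at 304 CPM under the newer symbol. Their defining gene Ly6g stood at 95.7 CPM and Mmp8 at 411 CPM. Tumour markers summed to 381 CPM in these neutrophils against 1577 CPM in the tumour gate of the same library.

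The genes differed in which cells held their UMIs, for which each cell was counted in 1 class only. Tumour cells held 93.02%, 51.3%, 92.95% and 70.9% of all UMIs in the order above. They held 95.8%, 76.4%, 94.96% and 84.8% of the Il1rn UMIs, and 86.5%, 74.4%, 82.9% and 65.1% of the Cxcl1 UMIs, which is below their share of all UMIs in each library except BTYNB. Cxcl2 came from myeloid cells, which held 71.5%, 80.0% and 85.6% of its UMIs in anti-PD-1, control and combination, while BTYNB split it between myeloid cells (47.7%) and neutrophils (36.1%). Il1a was a myeloid transcript in each library, at 67.8%, 64.7%, 54.3% and 80.8%. Cxcr2, the receptor by which neutrophils sense these chemokines, had 85.1% of its 2711 UMIs in BTYNB neutrophils, although these were 3.69% of the cells. In the other libraries Cxcr2 had 31, 82 and 43 UMIs in all, most of them in tumour cells. Most BTYNB neutrophils were shallower than any deposited cell of those libraries, and the part of this in the Cxcl2 and Cxcr2 splits was not tested.

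**Figure D1:**
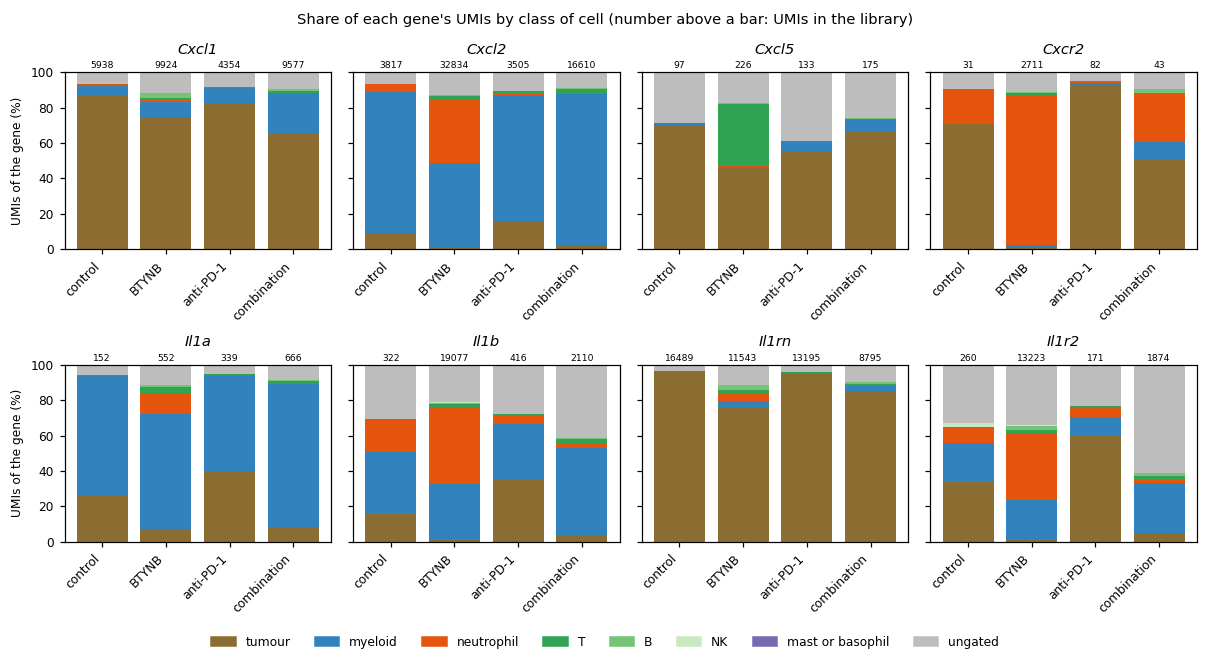
Stacked bars give the share of each gene's UMIs (vertical axis, %) that fell in each class of cell in each library, with the gene's UMIs in the library above each bar. Cxcl1 and Il1rn lay mostly in tumour cells, Cxcl2 and Il1a in myeloid cells, and Cxcr2 in neutrophils of the BTYNB library (85.1%), while cells outside all gates (grey) held 61.1% of the Il1r2 UMIs of the combination library.

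Among tumour cells, Cxcl1 was 43.9 CPM (interval 42.5 to 45.4) in anti-PD-1, 68.7 CPM (66.8 to 70.6) in control, 112 CPM (109 to 115) in combination and 128 CPM (125 to 131) in BTYNB. The BTYNB-treated libraries were the highest, the library given only anti-PD-1 was the lowest, and none of the 4 intervals overlapped. On the scale used for all ratios, log2 of CPM with 1 CPM added to each level, BTYNB over control was 0.89 (0.84 to 0.94) and combination over anti-PD-1 was 1.33 (1.27 to 1.39). Anti-PD-1 over control was -0.63 (-0.69 to -0.57) and combination over BTYNB was -0.19 (-0.24 to -0.15). With every cell thinned to 1000 UMIs, the shares of tumour cells with a Cxcl1 UMI were 5.82%, 8.53%, 4.25% and 8.93%, against 24.99%, 35.2%, 17.2% and 37.0% before thinning. The transcript was spread over many cells: the 5 richest tumour cells held 5.93% or less of the Cxcl1 UMIs of their library.

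Cxcl1 varied within the tumour cells. Cells with 3 or more UMIs of Cxcl17, a mucosal chemokine, had less Cxcl1 than the rest of the gate in each library, with 50.9 against 90.5, 98.5 against 174, 30.5 against 51.7 and 88.0 against 140 CPM. Proliferating cells (2 or more UMIs of Mki67 and Top2a) also had less, with 59.6 against 77.9, 110 against 141, 34.7 against 52.5 and 89.1 against 132 CPM. In anti-PD-1, 2024 tumour cells had 3 or more UMIs of the surface protein gene Cd24a, compared with 298 in control, 148 in BTYNB and 149 in combination. Cxcl1 was 19.4 CPM (17.4 to 21.4) in these anti-PD-1 cells and 51.4 CPM (49.6 to 53.2) in the others. Without Cd24a-high cells, anti-PD-1 over control was -0.41 (-0.47 to -0.35) and combination over anti-PD-1 was 1.12 (1.06 to 1.18). These subsets were gated on unthinned UMIs and had a higher median depth than the whole tumour gate in each library. In BTYNB, median UMIs were 20382 in Cxcl17-high, 20383 in proliferating and 28503 in Cd24a-high cells, against 15221 in the gate. The part of depth in differences between tumour subsets, here and below, was not tested.

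In myeloid cells Cxcl1 followed another order, from 55.4 CPM (51.8 to 59.1) in BTYNB through 208 CPM (187 to 231) in anti-PD-1 and 227 CPM (204 to 250) in control to 234 CPM (225 to 244) in combination. BTYNB stood far below the others, whose intervals overlapped. The BTYNB over control ratio was -2.01 (-2.19 to -1.84), that of combination to BTYNB 2.06 (1.95 to 2.17) and that of combination to anti-PD-1 0.17 (0.01 to 0.33). Thinned shares of myeloid cells with a Cxcl1 UMI were 12.1%, 2.75%, 13.3% and 13.3%, with 33.2%, 6.69%, 30.0% and 27.3% before thinning. Among cells at or above 5115 UMIs, the floor that all libraries share, BTYNB over control was -1.53 (-1.74 to -1.33). Tumour genes were also found in the myeloid gate: Msln, Upk3b, Lgals7, Krt14 and Wt1 stood at 6.94% to 16.6%, 1.99% to 6.59%, 10.5% to 24.3% and 3.80% to 9.77% of their tumour cell levels, Wt1 highest each time. Cxcl1 stood at 330%, 43.2%, 474% and 210% of its own. Their part in the myeloid Cxcl1 level was not tested.

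Cxcl2, the closest relative of Cxcl1 in this list, was 1001 CPM (986 to 1017) in BTYNB, 1477 CPM (1420 to 1536) in anti-PD-1, 1521 CPM (1496 to 1546) in combination and 1806 CPM (1742 to 1871) in control myeloid cells. Control was highest, BTYNB lowest, and the intervals of anti-PD-1 and combination overlapped. The BTYNB over control ratio was -0.85 (-0.91 to -0.79) and no contrast of Cxcl2 in myeloid cells reached 2-fold with summed UMIs, while as a mean over cells this ratio was -1.02. Thinned shares with a UMI were 55.0%, 35.2%, 53.5% and 44.1%. Tumour cells had 5.89, 7.76, 7.08 and 6.72 CPM, which is 0.326%, 0.775%, 0.479% and 0.442% of the myeloid level of their library. C1qb, a macrophage gene, stood at 0.245%, 0.315%, 0.484% and 0.83% of its own, so the order of the libraries differed between these genes. In tumour cells without a UMI of 7 leukocyte genes, Cxcl2 was 1.42, 2.20, 1.35 and 2.30 CPM.

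BTYNB neutrophils held Cxcl2 at 7271 CPM (7141 to 7403), far above the 1001 CPM of myeloid cells in that library, and 74.6% of 630 thinned neutrophils had a Cxcl2 UMI. Cxcl1 was low there, at 49.7 CPM (39.5 to 61.8), with a UMI in 2.22% of thinned cells. B cells, which should lack both genes, had a Cxcl2 UMI in 2.08% and a Cxcl1 UMI in 1.48% of thinned cells of that library, where the median B cell had 1910 and the median neutrophil 1408 UMIs. The Cxcl1 interval in neutrophils (1.22% to 3.70%) overlapped that of B cells (1.10% to 1.94%). B cell shares here and below are those of the whole gate. Of its 3491 cells in BTYNB, 3206 passed none of the tumour, myeloid, neutrophil and T cell gates. Shares in these 3206 cells alone were not measured, so whether Cxcl1 in neutrophils lay above background was not settled.

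Cxcl5, a Cxcr2 ligand made by epithelial cells, was scarce. Tumour cells had 0.907 CPM (68 UMIs), 3.11 CPM (180 UMIs), 0.909 CPM (75 UMIs) and 2.22 CPM (124 UMIs). Few cells carried it: in BTYNB, 35 tumour cells held all 180 UMIs, 76 of them in 1 cell, and the 5 richest cells held 66.7%. That cell, of 19151 UMIs in all, also passed the T cell gate with 3 UMIs of CD3 genes, and 104 UMIs were left without it. The BTYNB over control ratio was 1.11 (0.87 to 1.33) and that of combination to anti-PD-1 was 0.75 (0.51 to 0.99). When cells that passed more than 1 gate were left out, the first ratio was 0.56 (0.31 to 0.80), no longer past 2-fold. When the deepest 5% of cells of each gate were left out as well, so that the cells most prone to be doublets were gone, it was 0.64 (0.37 to 0.90). Cxcl5 lay almost wholly outside Cxcl17-high cells in BTYNB, at 0.455 CPM inside and 7.21 CPM outside.

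Myeloid cells had 1, 1, 7 and 12 Cxcl5 UMIs, and neutrophils of the BTYNB library had 2. The 7 UMIs of anti-PD-1 gave 4.07 CPM (1.64 to 8.39) and a ratio to control of 1.67 (-0.12 to 2.47), whose interval holds 0. Levels in the other libraries were 0.588, 0.0622 and 1.25 CPM, so the gene passed the filter of a mean of at least 1 CPM only through anti-PD-1. Its myeloid ratios follow in part from that and are not read as results. Combination over anti-PD-1 was -1.17 (-2.15 to -0.07) and combination over BTYNB was 1.08 (0.53 to 1.23), which rest on the same few UMIs. The T cell gate of the BTYNB library had 78 Cxcl5 UMIs, 76 of them in the cell that also passed the tumour gate.

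The growth factor Csf3, the main driver of neutrophil production, had 9, 13, 12 and 9 UMIs in tumour cells, 0, 0, 1 and 0 in myeloid cells and 0 in BTYNB neutrophils. The largest tumour cell level was 0.225 CPM (0.12 to 0.384) in BTYNB, and its interval overlapped those of the other libraries. In myeloid cells of BTYNB, the count of 0 allows up to 0.187 CPM (3 counts).

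Csf2 had 4, 2, 69 and 1 UMIs in tumour cells, so anti-PD-1 stood apart at 0.837 CPM (0.651 to 1.06) in 41 cells. Of the 69 Csf2 UMIs of the anti-PD-1 library all lay in tumour cells, and 50 of them in the 2024 Cd24a-high cells, at 2.60 CPM (1.93 to 3.43) compared with 0.300 CPM (0.181 to 0.469) in the rest. The intervals of the other libraries lay below it, at most 0.137 CPM. In BTYNB the gene had 32 UMIs, of which 21 were in T cells (2.75 CPM, 1.70 to 4.198) and 5 in natural killer cells. The combination library had 3 Csf2 UMIs in all.

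Cxcr2 marked neutrophils. It was 1416 CPM (1359 to 1475) in BTYNB neutrophils, and 74.3% of these held a UMI after thinning compared with 0.405% of B cells and 0.408% of T cells. Myeloid cells of the same library had 1.68 CPM (27 UMIs in 13 cells), which is 0.119% of the neutrophil level. In the remaining libraries myeloid cells had 0, 1 and 4 Cxcr2 UMIs. Tumour cells had 0.347, 0.691, 0.934 and 0.430 CPM, with anti-PD-1 highest, and at 0.934 CPM the 77 UMIs lay in 75 cells. The 16, 6 and 9 cells of the neutrophil gate in control, anti-PD-1 and combination held 6, 1 and 12 Cxcr2 UMIs, 58, 22 and 48 Il1b UMIs and 156, 46 and 90 Cxcl2 UMIs.

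**Figure D2:**
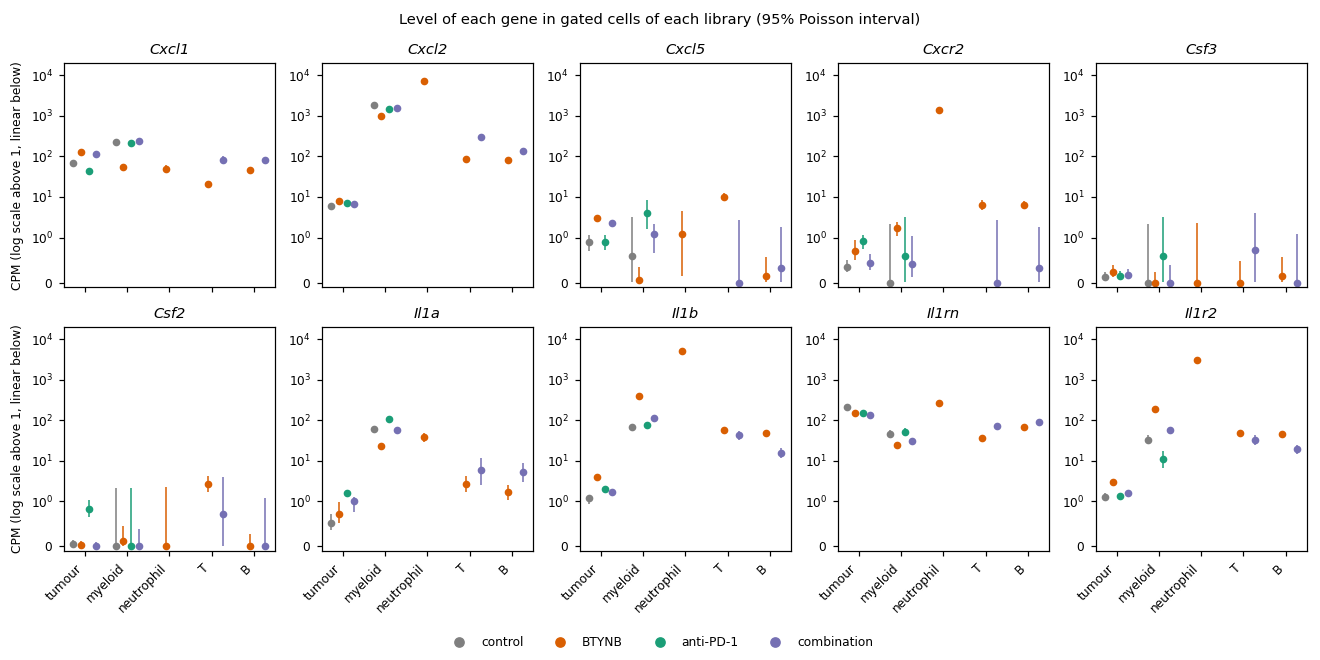
Points give the level of each gene (vertical axis, CPM, log scale above 1 and linear below) in tumour, myeloid, neutrophil, T and B cells of each library with at least 50 such cells, with 95% Poisson intervals. Neutrophils (BTYNB only) were highest for Cxcl2, Cxcr2, Il1b, Il1rn and Il1r2, and myeloid Il1b and Il1r2 of BTYNB stood above those of the other libraries.

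Il1b, the ligand that needs inflammasome cleavage for release, was 67.1 CPM (55.3 to 80.6) in control, 76.2 CPM (63.7 to 90.4) in anti-PD-1, 112 CPM (105 to 118) in combination and 386 CPM (377 to 396) in BTYNB myeloid cells. BTYNB was the highest by a wide margin, combination came next, and the intervals of control and anti-PD-1 overlapped. The BTYNB over control ratio was 2.51 (2.24 to 2.78), that of combination to BTYNB -1.78 (-1.88 to -1.69) and that of combination to anti-PD-1 0.54 (0.28 to 0.81). Thinned shares with a UMI were 6.92%, 27.2%, 8.36% and 7.74%, and 17.99%, 49.1%, 20.1% and 24.5% before thinning. Il1b stood at 7.61% of its neutrophil level in BTYNB myeloid cells, where the neutrophil genes G0s2, Hdc and Csf3r, which the myeloid gate did not limit, stood at 0.16%, 0.496% and 2.37% of theirs. In myeloid cells without a UMI of 5 neutrophil genes, the BTYNB over control ratio was 2.36 (2.08 to 2.65).

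Il1r2, the decoy receptor, was also highest in BTYNB. It was 33.5 CPM (25.4 to 43.4), 190 CPM (184 to 197), 11.05 CPM (6.65 to 17.3) and 56.4 CPM (51.7 to 61.3) in myeloid cells of the 4 libraries, in that order. None of the 4 intervals overlapped, with BTYNB highest and anti-PD-1 lowest. The ratios were 2.47 (2.10 to 2.86) for BTYNB over control, -1.52 (-2.28 to -0.79) for anti-PD-1 over control, 2.25 (1.64 to 2.92) for combination over anti-PD-1 and -1.74 (-1.87 to -1.61) for combination over BTYNB. The anti-PD-1 level rests on 19 UMIs in 14 cells, and at the common floor of 5115 UMIs, which left 67 anti-PD-1 cells, its ratio to control was -0.93 (-2.33 to 0.28). Thinned shares with a UMI were 5.54%, 15.5%, 1.04% and 5.34%.

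Il1a, the ligand that is active without cleavage, went the opposite way to Il1b in BTYNB myeloid cells. It was 61.2 CPM (50.0 to 74.1), 23.3 CPM (21.0 to 25.8), 107 CPM (92.1 to 124) and 57.0 CPM (52.3 to 62.0). Anti-PD-1 was highest and BTYNB lowest, and the intervals of control and combination overlapped. The ratio was -1.35 (-1.66 to -1.03) for BTYNB over control, 0.80 (0.45 to 1.15) for anti-PD-1 over control and 1.25 (1.07 to 1.44) for combination over BTYNB. At the common floor the first was -0.81 (-1.20 to -0.41), no longer past 2-fold, and the last was 0.92 (0.72 to 1.12). Tumour cells had 0.520, 0.726, 1.64 and 1.003 CPM of Il1a, with anti-PD-1 highest at 135 UMIs in 111 cells.

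Il1b and Il1r2 were rare in tumour cells. Il1b was 1.19 CPM (0.953 to 1.46), 4.09 CPM (3.59 to 4.65), 2.04 CPM (1.74 to 2.37) and 1.68 CPM (1.36 to 2.06), and Il1r2 was 1.31, 3.08, 1.33 and 1.59 CPM. BTYNB was highest for both. The BTYNB over control ratio was 1.22 (0.99 to 1.44) for Il1b and 0.82 (0.59 to 1.05) for Il1r2. Of the 237 Il1b UMIs of BTYNB tumour cells, 40 lay in 1 cell of 2260 UMIs, and 197 were left without it. In tumour cells without a leukocyte UMI, Il1b was 0.19, 1.09, 0.55 and 1.01 CPM and its BTYNB over control ratio was 0.808 (0.559 to 1.0002). Its thinned share in tumour cells was 0.112% in control and 0.585% in BTYNB. The whole B cell gate of BTYNB, which includes cells of other gates, had 1.88%.

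Il1rn, which blocks the IL-1 receptor, had its highest level in control tumour cells, at 211 CPM (208 to 215), and stood at 153 CPM (150 to 157) with BTYNB, 152 CPM (149 to 155) with anti-PD-1 and 134 CPM (131 to 137) with both. The intervals of BTYNB and anti-PD-1 overlapped, control lay above and combination below them. Over control, BTYNB was -0.46 (-0.50 to -0.42) and anti-PD-1 -0.47 (-0.51 to -0.44), and combination was -0.18 (-0.22 to -0.14) against anti-PD-1 and -0.19 (-0.23 to -0.15) against BTYNB. A UMI was found in 73.9%, 65.8%, 56.5% and 64.2% of tumour cells, and after thinning in 17.2%, 12.1%, 13.1% and 11.8%. In anti-PD-1, Il1rn was 84.8 CPM (80.7 to 89.0) in Cd24a-high cells and 173 CPM (169 to 176) in the rest. Unlike Cxcl1, it was higher in proliferating cells than in the others of the gate for control (232 against 191 CPM), BTYNB (175 against 138 CPM) and combination (152 against 119 CPM), and lower in anti-PD-1 (148 against 156 CPM).

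Myeloid cells had 45.3, 24.5, 51.2 and 30.4 CPM of Il1rn, which is 21.4%, 16.0%, 33.6% and 22.6% of the tumour cell level, where the same 5 tumour genes stood at 6.94% to 16.6%, 1.99% to 6.59%, 10.5% to 24.3% and 3.80% to 9.77%. Tumour markers summed to 151, 36.0, 176 and 80.3 CPM in the same cells, in the order of the Il1rn levels, and their part in these was not tested. The BTYNB over control ratio was -0.86 (-1.21 to -0.50). In BTYNB neutrophils Il1rn was 263 CPM (239 to 289), above the tumour cells of that library, with a UMI in 23.8% of thinned neutrophils and 1.62% of thinned B cells.

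Neutrophils of the BTYNB library thus held 5 of the genes at levels above every other gate of 50 or more cells in any library. Beside Cxcl2, Cxcr2 and Il1rn, these were Il1b at 5070 CPM (4961 to 5181) and Il1r2 at 3022 CPM (2938 to 3107). Thinned shares with a UMI were 87.0% for Il1b and 87.3% for Il1r2, against 1.88% and 3.01% of B cells. Across the 675 cells the median was 6515 CPM for Il1b, 5335 CPM for Cxcl2, 4025 CPM for Il1r2 and 1873 CPM for Cxcr2. The spread was widest for Cxcl2, whose quartiles were 709 and 16813 CPM, compared with 2889 and 12523 CPM for Il1b. Il1a was 38.6 CPM (29.7 to 49.4) with a UMI in 3.33% of thinned cells.

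Members appeared together in cells to differing degrees, described here by cells thinned to 1000 UMIs and compared with the product of the separate shares. Of myeloid cells with a Cxcl1 UMI, 80.0%, 81.9%, 88.2% and 82.6% also had Cxcl2, compared with 51.6%, 33.9%, 48.2% and 38.2% of the other myeloid cells. Cxcl1 and Il1b were seen together less than their product, in 12 cells of BTYNB where 22.6 would follow from the shares. Il1b and Il1r2 were together in 191 BTYNB and 17 combination myeloid cells, 1.496 and 3.28 times the product. In neutrophils, 511 of 630 cells held both, 1.07 times the product. In tumour cells, Cxcl1 and Il1rn were together at 0.91, 1.06, 0.97 and 0.999 times the product. Cells of 1 library share their capture, so these values carry no test.

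Subsets of the myeloid gate, set by UMIs of other genes, differed in these transcripts. Cells with 3 or more C1q UMIs (C1q macrophages: 189, 1068, 323 and 605 cells) had Il1b at 44.5 CPM (33.03 to 58.7), 311 CPM (297 to 325), 78.0 CPM (64.3 to 93.8) and 78.5 CPM (70.7 to 87.0). Their Il1r2 was 20.5, 143, 7.59 and 34.4 CPM and their Cxcl1 257, 88.1, 221 and 298 CPM. BTYNB was again highest for Il1b and Il1r2 and lowest for Cxcl1 in this subset, with ratios to control of 2.78 (2.38 to 3.20), 2.74 (2.17 to 3.37) and -1.54 (-1.74 to -1.33). For Il1rn the ratio there was -0.12 (-0.61 to 0.39).

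Macrophages with 2 or more UMIs of Retnla, an alternative activation gene, were 56, 97, 19 and 182 cells. Their Il1b level was 50.1 CPM (28.6 to 81.3) in control, 49.7 CPM (34.6 to 69.1) in BTYNB and 63.0 CPM (50.8 to 77.2) in combination, and these intervals overlapped. Cxcl1 reached 417 CPM (385 to 451) in those of combination, compared with 197 CPM (152 to 252) in control and 140 CPM (114 to 171) in BTYNB. Cxcl2 was 2523, 1521 and 2313 CPM in the same libraries.

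Monocytes with 2 or more Ly6c2 UMIs were 957 cells in BTYNB and 131 in combination. There, Il1b was 530 CPM (508 to 552) and 125 CPM (104 to 150), Il1r2 208 CPM (195 to 223) and 51.9 CPM (38.2 to 68.8), and Cxcl1 17.6 CPM (13.8 to 22.1) and 135 CPM (112 to 161). BTYNB was thus higher for Il1b and Il1r2 and lower for Cxcl1 in this subset too. Control and anti-PD-1 had 20 and 18 such cells.

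Dendritic cells split by type. Cells with 2 or more Cd209a UMIs, a type 2 dendritic marker, had Il1b at 474 CPM (434 to 517) in 137 BTYNB cells and 337 CPM (294 to 383) in 90 combination cells, and Il1r2 at 456 CPM (416 to 498) and 222 CPM (188 to 261). Type 1 dendritic cells, gated by Xcr1 and Clec9a, had the lowest Cxcl2 of the subsets with at least 50 cells, at 203 CPM with BTYNB alone and 182 CPM with both agents, and Cxcl1 at 9.17 and 9.44 CPM.

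**Figure D3:**
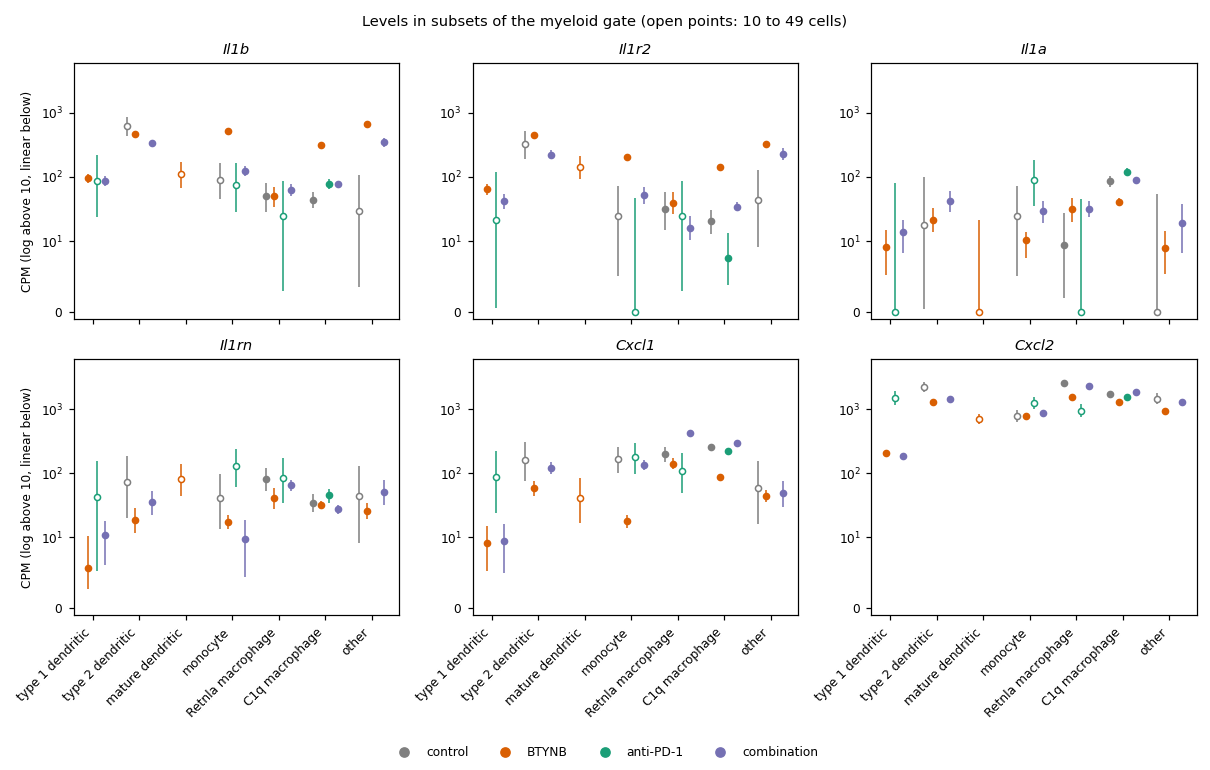
Points give levels (vertical axis, CPM, log scale above 10 and linear below) in subsets of the myeloid gate by library, with 95% Poisson intervals and open points for 10 to 49 cells. Il1b and Il1r2 of BTYNB stood above the other libraries in C1q macrophages and monocytes, while in Retnla macrophages Il1b was 49.7 CPM in BTYNB and 50.1 CPM in control.

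Cells outside all gates held 34.1% of the Il1r2 UMIs of BTYNB and 61.1% of those of combination, and 21.2% and 41.2% of the Il1b UMIs. A split of these cells was chosen after their values had been seen. Ungated cells with 2 or more UMIs of Xcr1, Clec9a and Cd209a had Il1r2 at 452 CPM (431 to 474) in 587 BTYNB cells and at 237 CPM (218 to 256) in 380 combination cells, where they held 33.03% of the library's Il1r2 UMIs. Their Il1b was 262 CPM (246 to 279) and 164 CPM (148 to 180). Ungated cells with UMIs of the migration genes Ccr7 and Fscn1 had Il1b at 222 CPM (198 to 248) in 329 BTYNB cells and 316 CPM (267 to 371) in 74 combination cells.

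For each contrast, the count of members at least 2-fold apart was read beside the same share over all genes that passed the same filter, a mean of at least 1 CPM over the libraries of the gate. In tumour cells 6 members passed (Cxcl1, Cxcl2, Cxcl5, Il1b, Il1rn and Il1r2), of 13391 genes in all. For BTYNB over control, 2 members were at least 2-fold higher (Cxcl5 and Il1b) and 0 lower, beside 0.336% of genes higher and 0.56% lower. Cxcl5 was 0.907 CPM in control and 0.909 CPM in anti-PD-1, so it passed the filter only through the libraries given BTYNB. Its call follows in part from that and is not read as a result. The median ratio was 0.86 over the 6 members and 0.01 over all genes. At the common floor the Il1b ratio was 0.74 (0.49 to 0.97) and with a pseudocount of 5 CPM neither gene reached 2-fold. Of the 180 UMIs of Cxcl5, 76 lay in the cell that passed both gates, and of the 237 of Il1b, 40 lay in 1 cell. Without cells of more than 1 gate only Il1b was past 2-fold. As a mean over cells, Cxcl2 (1.21), Il1b (2.57) and Il1r2 (1.60) were past 2-fold and Cxcl5 (0.98) was not.

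For anti-PD-1 over control, 0 members were past 2-fold in tumour cells, beside 2.34% of genes higher and 0.388% lower, with medians of 0.01 and -0.07. For combination over anti-PD-1, only Cxcl1 was past 2-fold among the 6, and higher, beside 0.59% of genes higher and 2.11% lower, with medians of 0.04 and 0.06. For combination over BTYNB, 0 members were past 2-fold in either direction, beside 0.0971% of genes higher and 0.0448% lower. The median was -0.27 over the 6 members and -0.01 over all genes. The contrasts share libraries, so their values are set side by side and are not independent.

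In myeloid cells 7 members passed (the same 6 and Il1a), of 13279 genes. For BTYNB over control, Il1b and Il1r2 were at least 2-fold higher and Cxcl1 and Il1a at least 2-fold lower, 2 in each direction, beside 5.22% of genes higher and 9.87% lower. The median was -0.85 over the members and -0.08 over all genes. For anti-PD-1 over control, Cxcl5 was higher and Il1r2 lower, 1 in each direction, beside 4.96% and 4.55% of genes. For combination over anti-PD-1, Il1r2 was higher and Cxcl5 lower, beside 5.23% and 5.85%. For combination over BTYNB, Cxcl1, Cxcl5 and Il1a were higher and Il1b and Il1r2 lower, 3 and 2 members beside 2.58% and 0.956% of genes. The medians of the last 3 contrasts were 0.17, 0.04 and 0.60 over the members and -0.02, -0.03 and 0.02 over all genes. The Cxcl5 calls rest on 1 to 12 UMIs and on the filter, as described above, and are not read as results.

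**Figure D4:**
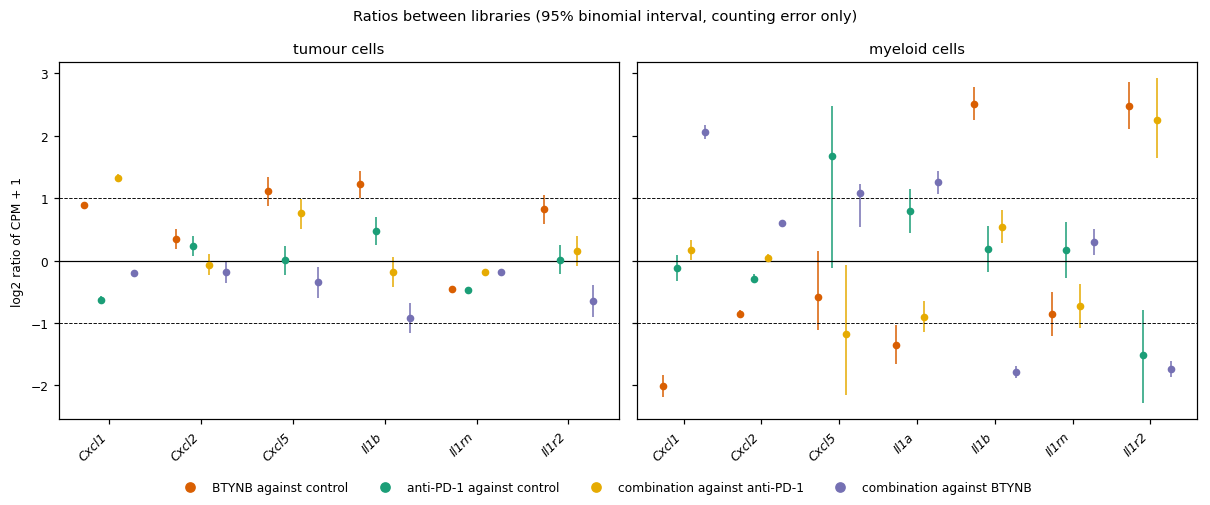
Points give log2 ratios of CPM + 1 (vertical axis) for members that passed the filter in tumour (left) and myeloid cells (right), 1 colour per contrast, with 95% binomial intervals and dashed lines at 2-fold. In BTYNB over control, Cxcl1 was 0.89 in tumour cells and -2.01 in myeloid cells, while Il1b (2.51) and Il1r2 (2.47) lay highest in myeloid cells.

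The choice of cells moved the myeloid levels. The ranges below cover the common floor, doubled gate limits, the gate without doublet-prone cells, cells of 1 gate only, cells without a neutrophil UMI and C1q macrophages. They leave out Retnla macrophages, in which Il1b was level between BTYNB and control and the Cxcl1 intervals of BTYNB and control overlapped. For Il1b, BTYNB over control ranged from 2.34 at the common floor to 2.78 in C1q macrophages among choices of cells with summed UMIs, and for Il1r2 from 2.45 without doublet-prone cells to 2.74 in C1q macrophages. For Cxcl1 it ranged from -2.30 without doublet-prone cells to -1.53 at the common floor.

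**Figure D5:**
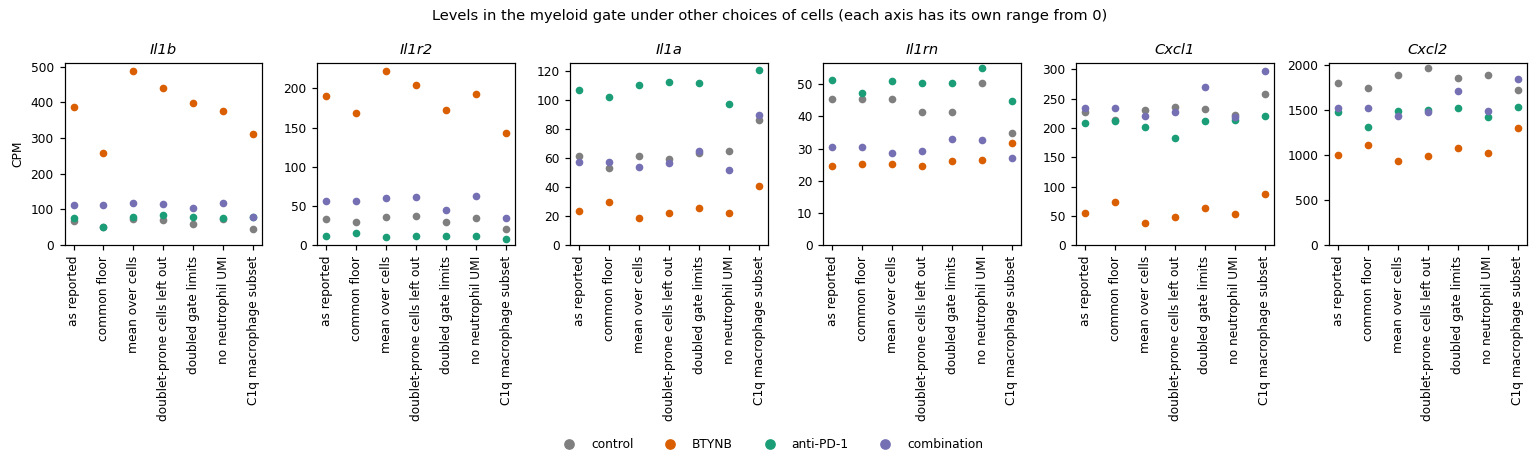
Points give myeloid levels (vertical axes, CPM, each from 0) of 6 members by library, as reported and under 6 other choices of cells or of averaging. Il1b and Il1r2 were highest in BTYNB under each choice shown, and Cxcl1 was lowest in BTYNB under each.

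Other genes of these pathways were counted from a list of 65. In tumour cells 46 passed the filter. For BTYNB over control 0 were at least 2-fold higher and 2 lower (all genes: 0.336% and 0.56%). The lower ones were Cxcl15, a CXC chemokine (4.75 to 1.05 CPM, ratio -1.48, interval -1.70 to -1.25), and Pycard, the inflammasome adaptor (45.04 to 18.9 CPM, -1.21). For anti-PD-1 over control 4 were higher and 2 lower (all genes: 2.34% and 0.388%). Tnf led the former at 14.1 CPM against 1.17 CPM in control (2.80, 2.61 to 2.98), followed by the inflammasome sensor Nlrc4 (5.75 against 1.09 CPM, 1.69) and the IL-18 receptor chain Il18rap (6.22 against 1.28 CPM, 1.66). The lower genes were again Cxcl15 (-1.53) and Pycard (-1.02). For combination over anti-PD-1 1 was higher, Cxcl12, a chemokine for Cxcr4 (39.0 against 17.0 CPM, 1.15), and 3 lower, Tnf (-2.42), Il18rap (-1.59) and Nlrc4 (-1.21), where all genes had 0.59% and 2.11%. For combination over BTYNB none of the 46 was past 2-fold (all genes: 0.0971% and 0.0448%).

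Of the 19 genes of signalling below IL-1 and its brakes, all passed in tumour cells and 0 were past 2-fold in any of the 4 contrasts. Their median ratio was 0.24 for BTYNB over control, -0.21 for anti-PD-1 over control, 0.40 for combination over anti-PD-1 and -0.17 for combination over BTYNB. Il1r1, the signalling receptor, was 25.5, 30.0, 31.5 and 27.7 CPM in tumour cells, and Il1rap 8.02, 11.96, 6.91 and 10.1 CPM.

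In myeloid cells 51 of the 65 passed, with 4 higher and 6 lower for BTYNB over control (all genes: 5.22% and 9.87%). The higher ones included Il18rap (10.6 against 2.35 CPM, 1.79), Il18r1 (1.17, -0.03 to 2.22) and Csf2rb2 (1.08), a receptor chain for interleukin-3, and the lower ones were led by Cxcl12 (0.75 against 12.9 CPM, -3.00), the scavenging receptor Ackr3 (-2.02) and the cytokine Il33 (-1.81). Il6, an IL-1 target, was 20.0 CPM in control and 6.28 CPM in BTYNB. For anti-PD-1 over control (all genes: 4.96% and 4.55%) 3 were higher, Il18r1 (1.17, -0.34 to 2.45), Il18bp (1.06) and Il17rc (1.02, -0.39 to 2.32), and 2 lower, Sigirr (-1.44, -2.68 to 0.02) and Il1rl1 (-1.38). For combination over anti-PD-1 (all genes: 5.23% and 5.85%) 2 were higher, Il18rap (1.48) and Il1rl1 (1.43), and 6 lower, led by Cxcl12 (-1.87), Il1r1 (-1.52) and Il33 (-1.43). For combination over BTYNB (all genes: 2.58% and 0.956%) 3 were higher, Ackr3 (1.88), Il6 (1.12) and Cxcl12 (1.05), and 0 lower. Cxcl12 and Il33 stood at 17.0 to 39.0 and 69.4 to 96.3 CPM in tumour cells, and fibroblast markers, which tumour cells also held at 237.8 to 358.5 CPM, summed to 84.7, 8.46, 149 and 25.8 CPM in the myeloid gate. Their part in these ratios was not tested.

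Neutrophils of BTYNB held 20 of the 62 pathway genes listed in the libraries at 100 CPM or more, beside 1857 of all 29835 genes (6.22%). Among the 16967 genes with a UMI in these cells, the share was 10.9%. The highest were Zfp36, which destabilises cytokine transcripts, at 4685 CPM, the G-CSF receptor Csf3r at 1649 CPM, which the gate used, and the inflammasome sensor Nlrp3 at 961 CPM. NF-kB inhibitors Nfkbia (867 CPM), Nfkbiz (652 CPM) and Tnfaip3 (359 CPM) and the GM-CSF receptor chains Csf2rb (553 CPM) and Csf2ra (515 CPM) followed with Csf1 (548 CPM). Il36g, the IL-1 family ligand named above among the markers, was at 304 CPM.

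Genes with the most similar pattern were sought over 11 points, each a gate in a library with at least 50 cells, among 10918 genes with a mean of at least 5 CPM. Points of 1 library share depth and treatment, and Pearson's r of log2 levels is given as a description. For Cxcl2 these were Nfam1 (0.998), Ccr1 (0.995) and Cd300ld (0.995), for Cxcr2 G0s2 (0.994), Cstdc4 (0.993) and Mirt2 (0.992), and for Il1b Cpeb2 (0.989), Max (0.981) and Mthfsl (0.981). Cxcr2 was 1416 CPM in neutrophils and at most 6.41 CPM at the other points, so its r rests largely on 1 point. For Il1a they were Fam20c (0.987), Slc11a1 (0.984) and Adgb (0.983), for Il1r2 Ythdf3 (0.986), Rara (0.984) and Braf (0.982), and for Il1rn Hspa4l (0.981), Rnf11 (0.976) and Pdlim7 (0.963). Cxcl1 had looser matches in Pbx3 (0.923), Ptgs1 (0.922) and Tmem141 (0.897), and Cxcl5, which reached 10 CPM only in the T cell gate of BTYNB through the cell of 2 gates, in D130040H23Rik (0.938), Pde12 (0.812) and Wdr45 (0.81).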

How the data were processed

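Ascites cells of the 4 treatment groups were profiled as 1 library of pooled animals each on BD Rhapsody. The deposited counts are whole UMI counts per gene and cell, made by the authors with the BD Rhapsody Sequence Analysis Pipeline, and the submitters' processing notes name GRCm39. Doses of BTYNB and antibody differ between the labels and the study's methods and are not given here. The 10 genes, the pathway and marker lists and the settings were chosen with earlier results of these data known.

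Cells with fewer than 200 genes or more than 33% mitochondrial UMIs (genes with the prefix mt-) were removed. UMIs were summed over gated cells and scaled to CPM. Levels carry exact Poisson intervals, shares Clopper-Pearson intervals, and ratios exact binomial intervals carried to the log2 scale with 1 CPM added to each level, all at 95% and for counting error only. A count of 0 was given the limit of 3 counts. Genes with a mean of at least 1 CPM over a gate's libraries were compared, and a ratio of at least 2-fold was called. Cells were thinned to 1000 UMIs with a fixed seed, and shallower cells were left out (19 tumour, 15 myeloid, 45 neutrophil, 30 T and 34 B cells, all of BTYNB). No doublet caller was run, and the gates and a setting without doublet-prone cells (those that passed more than 1 gate and the deepest 5% of each gate) stand in for one. Named genes were the 10 members, up to 3 pathway genes per direction and contrast past 2-fold, and the 3 genes most like each member with at least 10 CPM in 1 point. Pathway genes named for their level in neutrophils, and the levels of Il1r1, Il1rap and Il6, were chosen after their values had been seen. The settings tried were a common floor of 5115 UMIs, median-of-ratios scaling, a mean over cells, other pseudocounts and filters, doubled gate limits and 5 restrictions of the gates chosen after seeing the data. The ratio code was tested on simulated counts. Python 3.11.15 with numpy 2.4.6, scipy 1.17.1 and pandas 2.3.3 was used.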

Additional observations from a re-analysis of the deposited data

Results flagged for a closer look

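Cxcl1 stood on opposite sides of 0 in tumour and myeloid cells, on the log2 scale of CPM + 1. BTYNB over control was 0.89 in tumour cells and -2.01 in myeloid cells, and combination over BTYNB was -0.19 in tumour cells and 2.06 in myeloid cells. In myeloid cells the effect of adding BTYNB also differed beside the other agent, at -2.01 without and 0.17 with the PD-1 antibody. With 1 library per group, none of these differences was tested.

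Cxcl5 did the same from few UMIs. Combination over anti-PD-1 was 0.75 in tumour cells and -1.17 in myeloid cells, and combination over BTYNB was -0.35 in tumour cells and 1.08 in myeloid cells. These differences were not tested, and the myeloid values rest on 1, 7 and 12 UMIs in BTYNB, anti-PD-1 and combination. Without doublet-prone cells, the myeloid ratio of combination over anti-PD-1 was 0.56 and the tumour ratio of combination over BTYNB was 0.15, so neither contrast stood on opposite sides of 0.

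B cells, which should lack them, held 3 of the myeloid transcripts at levels whose lower bound lay above the control library's upper limit. In the BTYNB gate Cxcl2 was 81.6, Il1b 48.6 and Il1r2 45.6 CPM, and in that of combination 133, 15.9 and 19.3 CPM. Of its 3491 BTYNB cells, 3206 passed none of the tumour, myeloid, neutrophil and T cell gates. These 3206 cells held 163 of the 1054 Cxcl2 UMIs of the BTYNB gate, so most of that level lay in cells of more than 1 gate. The whole BTYNB gate held S100a8 and S100a9, neutrophil genes, at 0.319% and 0.409% of their neutrophil level, Cxcl2 at 1.12%, Il1b at 0.959% and Il1r2 at 1.51%.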

How the results depend on the processing

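Of the 16 member ratios past 2-fold, 187 values were recomputed under the settings that applied, 185 kept their direction and 166 stayed past 2-fold. Settings that change only the filter on low values leave each ratio as it was, so their values count as kept by construction. Of 192 counts of members past 2-fold, 173 stayed within 1.5 times. In tumour cells, the 2 members higher in BTYNB over control became 1 at the common floor (Cxcl5), with doubled gate limits (Cxcl5), without doublet-prone cells (Il1b) and, in settings added after seeing the data, in cells of 1 gate only (Il1b) and in cells without a leukocyte UMI (Cxcl5), and 0 with a pseudocount of 5 CPM or a mean of at least 5 CPM. As a mean over cells, 3 members (Cxcl2, Il1b and Il1r2) rather than 0 were lower in combination over BTYNB tumour cells. In myeloid cells, BTYNB over control had 1 lower member at the common floor (Cxcl1) rather than 2. For anti-PD-1 over control, the 1 higher member became 0 with a pseudocount of 5 CPM, a mean of at least 5 CPM or without doublet-prone cells, and the 1 lower member 0 at the common floor. For combination over anti-PD-1, the 1 higher member became 2 at the common floor (Il1b and Il1r2), and the 1 lower member 2 as a mean over cells (Cxcl5 and Il1a) and 0 with a pseudocount of 5 CPM, a mean of at least 5 CPM, without doublet-prone cells or with doubled gate limits. Without doublet-prone cells, Cxcl5 in myeloid cells reversed to -0.74 in anti-PD-1 over control and to 0.56 in combination over anti-PD-1. The filters on low values remove genes by construction, and the cause of the other changes was not tested.

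No paired analysis was possible because each group had 1 library of pooled animals. For the same reason no replicate could be left out, and the intervals say nothing about the spread between animals. The 289 and 383 myeloid cells of control and anti-PD-1 limit what could be seen there, and Csf2, Csf3, Cxcl5 and myeloid Cxcr2 rest on few UMIs. Taken over all cells, the BTYNB library was the shallowest (median 2562 UMIs), but its tumour cells were the deepest. Median UMIs were 9783, 15221, 7160 and 11503 in the tumour gate and 5347, 4436, 4204 and 7067 in the myeloid gate. The common floor and thinning address these differences in depth only in part.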
